A study of Sus scrofa with 24 samples.

Results

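Squamous and cornified envelope genes were followed in cultured pig bronchial epithelium. The 9 genes, chosen by symbol, were the transglutaminases TGM1 and TGM3, the envelope precursors IVL, EVPL, PPL and SCEL, the keratins KRT4 and KRT13, and the desmosomal cadherin DSG1. A pig Ensembl identifier in the count table carried the symbol of 8 of the 9, among 25880 pig genes. No identifier was paired with KRT13, the usual partner of KRT4, and it was not analysed here. All 8 genes passed a filter on low counts that left 14172 genes for testing.

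The cells came from the bronchi of wild-type pigs 1 month old and were grown on collagen-treated membranes at an air-liquid interface, where basal cells can form secretory and ciliated cells. They received 20 µM SB203580, an inhibitor of p38 MAP kinases, or its solvent DMSO for 1 h. Flagellin, which forms bacterial flagella and is sensed by the receptor TLR5, was then given at 100 ng/ml, or PBS in its place, for 24 h or 2 h. The 6 groups of 4 libraries were SB203580 plus flagellin, flagellin and PBS at 24 h, and the same at 2 h. The flagellin and PBS groups were preincubated with DMSO, so every culture had a preincubation, and SB203580 without flagellin was not analysed here.

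The cornified envelope is a protein shell laid down beneath the membrane of the outermost cells of stratified epithelia. Transglutaminases weld it together from precursors such as involucrin, encoded by IVL, on a scaffold of the plakins envoplakin and periplakin that ties it to desmosomes and keratin filaments. Bronchial epithelium normally makes little of it and can take on squamous features after injury, in culture or when vitamin A is short. These roles are known mainly from human and mouse tissue.

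Libraries held 26345945 to 36267289 counts on pig genes (median 32494269.5), and a floor of 3 counts was worth 0.0827 to 0.114 CPM. CPM are read counts brought to one common library total, here scaled by TMM factors, which correct for differences in RNA composition between libraries. The labels do not say what a replicate number stands for. Replicates 1 and 2 stood apart from replicates 3 and 4: the Y-linked gene EIF1AY was at 15.4 to 32.8 CPM in their 12 libraries, against 0 to 0.0297 CPM in the other 12. The 2 sets were therefore compared as well, although they are not groups of the study. This split was known from earlier results of these data. Each set holds 2 replicate numbers, so its 6 libraries at each time are not shown to be independent. Where cultures shared an animal, p-values measure only the spread between these libraries. Mitochondrial genes took 4.29% to 6.15% of counts in replicates 1 and 2, against 3.03% to 4.00% in replicates 3 and 4, without overlap. The club cell marker SCGB1A1 was at 0.754 to 14.8 CPM in replicates 1 and 2, against 0 to 0.250 CPM in replicates 3 and 4, and the ciliated cell gene FOXJ1 was at 3.46 to 22.8 against 1.53 to 10.8 CPM. The leukocyte marker PTPRC was at 0 in 9 of 12 libraries of each set, although 3 of 5 tested leukocyte markers were higher and 1 lower in replicates 1 and 2 at 24 h and 4 were higher at 2 h. CSF1R, a receptor of macrophages, averaged 1.57 CPM in replicates 1 and 2 and 0.011 CPM in replicates 3 and 4 at 2 h. In such bulk RNA, fewer cells of a type and less RNA per cell cannot be told apart.

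Per kilobase of gene, the 8 genes spanned a wide range. CPM per kilobase of deposited gene length (RPKM) had a median over the 24 libraries of 572 for KRT4, 196 for SCEL, 119 for PPL, 72.3 for IVL, 24.9 for EVPL, 13.9 for DSG1, 8.92 for TGM1 and 0.840 for TGM3. KRT4, at 437 to 2862 RPKM, did not overlap SCEL, at 132 to 396 RPKM, whereas each other pair of neighbours in this order overlapped over the 24 libraries. Together the 8 genes took 0.289% to 1.20% of a library's counts on pig genes. They lay on 8 different chromosomes, with coordinates as in the deposited table. Neither its pig assembly nor its use of strand is given in the sources used here. TGM1 (ENSSSCG00000001993) was placed on chromosome 7 from 75021788 to 75045153 on the plus strand and TGM3 (ENSSSCG00000026043) on chromosome 17 from 33191909 to 33236609 on the minus strand. IVL (ENSSSCG00000006595), a compact gene, was on chromosome 4 from 96656523 to 96657615 on the minus strand. The plakins EVPL (ENSSSCG00000017192) and PPL (ENSSSCG00000007927) were on chromosome 12 from 5409668 to 5429606 and chromosome 3 from 37460881 to 37511876, both on the plus strand. SCEL (ENSSSCG00000009474) was on chromosome 11 from 49651654 to 49775223 on the plus strand, KRT4 (ENSSSCG00000024610) on chromosome 5 from 18090751 to 18099421 on the minus strand, and DSG1 (ENSSSCG00000020694) on chromosome 6 from 115236870 to 115276729 on the plus strand. Reads of a gene overlapping on the other strand therefore cannot be told apart from those of the 8, nor can reads that KRT4 shares with related keratins.

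**Figure D1:**
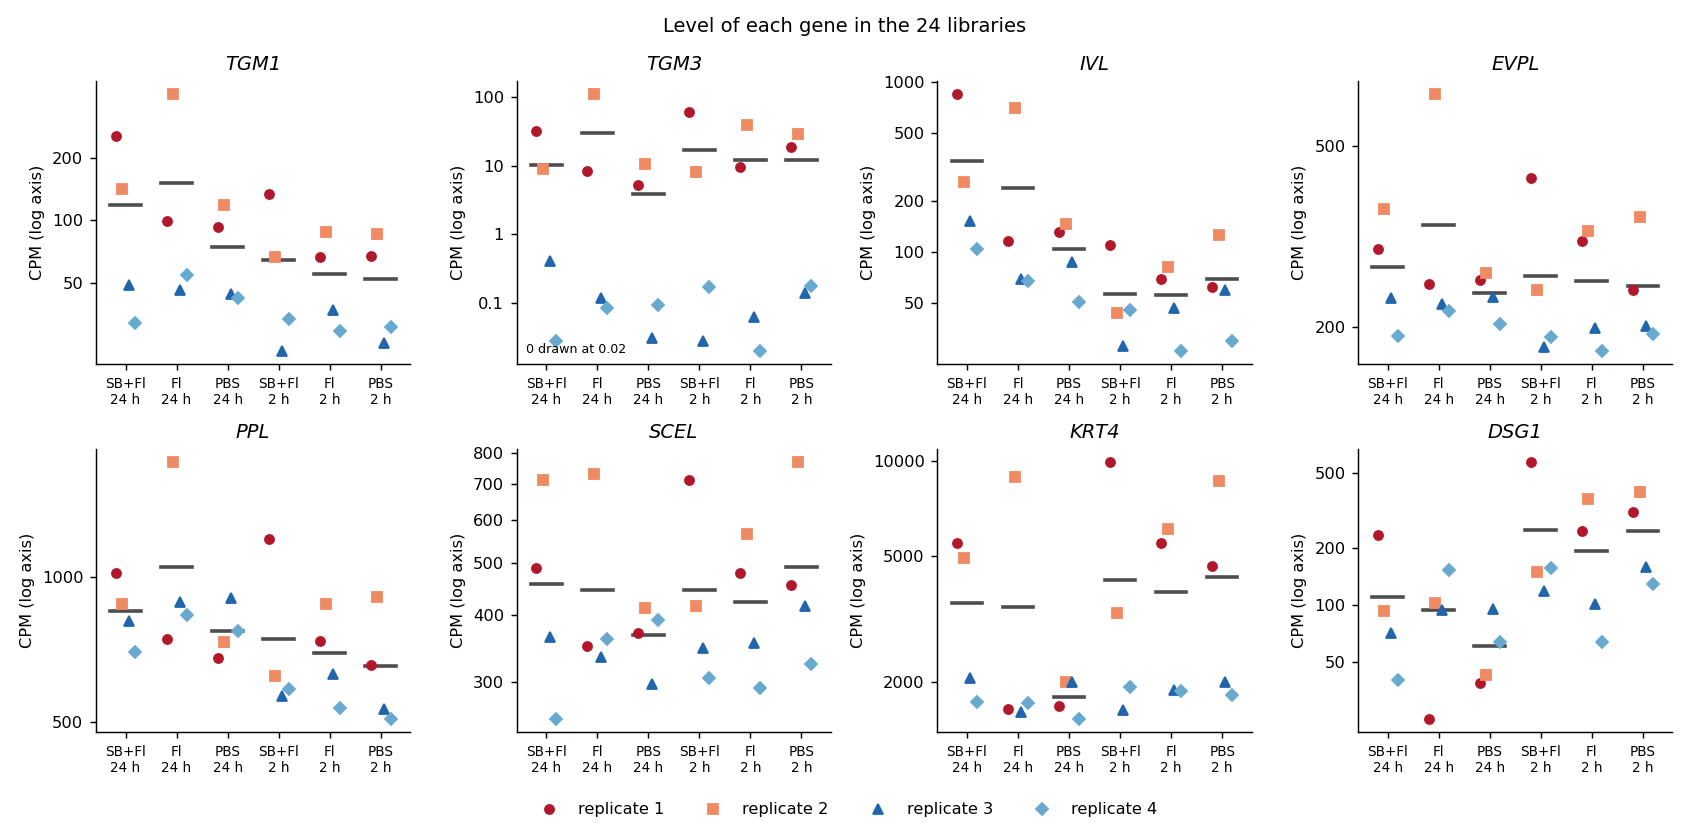
Level of each of the 8 genes in the 24 libraries (CPM, log axis), by group; SB+Fl is SB203580 plus flagellin and Fl is flagellin. Points are libraries with shape and colour for the replicate number, and bars are group means of 4 libraries. TGM3 lies between 5.14 and 110 CPM in replicates 1 and 2 and at 0.404 CPM or less in replicates 3 and 4, and replicate 2 of flagellin at 24 h is the highest library of its group for 7 of the 8 genes.

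The cross-linking enzymes were both higher in replicates 1 and 2 than in replicates 3 and 4. TGM1 encodes the membrane-anchored transglutaminase of keratinocytes. At 24 h TGM1 stood at 253, 141, 48.8 and 32.0 CPM in replicates 1 to 4 of SB203580 plus flagellin, at 99.7, 404, 46.2 and 54.5 CPM with flagellin, and at 93.1, 118, 44.0 and 42.2 CPM with PBS. At 2 h it stood at 133, 66.6, 23.5 and 33.4 CPM with SB203580 plus flagellin, at 66.6, 87.7, 37.2 and 29.3 CPM with flagellin, and at 67.6, 85.6, 25.6 and 30.8 CPM with PBS. Every library of replicates 1 and 2 was above every library of replicates 3 and 4, within each time and over both, while the treatment groups overlapped. The log2 fold change of replicates 1 and 2 over replicates 3 and 4 was 1.97 ± 0.29 (SE) at 24 h (adjusted p = 1.46e-05) and 1.49 ± 0.29 at 2 h (adjusted p = 0.000369). Adjusted p-values here and below come from edgeR's quasi-likelihood test with Benjamini-Hochberg adjustment over the 14172 genes.

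TGM3, the soluble epidermal transglutaminase, was present in one set and nearly absent from the other. At 24 h TGM3 was at 31.5, 8.85, 0.404 and 0.0279 CPM in replicates 1 to 4 of SB203580 plus flagellin, at 8.30, 110, 0.120 and 0.0851 CPM with flagellin, and at 5.14, 10.4, 0.0309 and 0.0933 CPM with PBS. At 2 h it was at 59.8, 7.99, 0.0281 and 0.173 CPM with SB203580 plus flagellin, at 9.38, 38.8, 0.0625 and 0 CPM with flagellin, and at 18.7, 28.3, 0.140 and 0.180 CPM with PBS. Summed TGM3 counts were 9914 in replicates 1 and 2 and 46 in replicates 3 and 4, a depth-corrected ratio of 221 with an exact 95% interval of 165 to 302 that covers counting error only. Of the 12 libraries of replicates 3 and 4, 7 held 3 counts or fewer, so their levels are near the floor. The fitted log2 fold change between the sets was 7.62 ± 0.92 at 24 h (adjusted p = 1.32e-06) and 8.10 ± 0.93 at 2 h (adjusted p = 1.49e-06). Within replicates 1 and 2 TGM3 itself ranged from 5.14 to 110 CPM, and 1 library in each of 2 groups was far above the rest: replicate 2 of flagellin at 24 h and replicate 1 of SB203580 plus flagellin at 2 h.

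Involucrin, the glutamine-rich precursor cross-linked early in envelope assembly, was the gene of the 8 with a called change over time. IVL was at 855, 258, 152 and 104 CPM in replicates 1 to 4 of SB203580 plus flagellin at 24 h, against 109, 43.9, 28.0 and 45.6 CPM at 2 h. With flagellin it was at 116, 704, 69.6 and 67.7 CPM at 24 h, against 68.8, 81.5, 46.9 and 25.9 CPM at 2 h. With PBS it was at 131, 146, 86.9 and 50.6 CPM at 24 h, against 62.1, 125, 59.9 and 30.0 CPM at 2 h. IVL was higher at 24 h than at 2 h in each of the 4 replicate numbers of each of the 3 treatments, although the libraries of the 2 times overlapped in every treatment. A direction shared by all 4 replicate numbers was seen in 33.5% of all genes with SB203580 plus flagellin, 33.6% with flagellin and 38.4% with PBS. With SB203580 plus flagellin the log2 fold change of 24 h over 2 h was 2.60 ± 0.77 (adjusted p = 0.0467), and IVL was the 1 gene of the 8 called higher, where 3.7% of all genes were called higher. It was 2.10 ± 0.76 with flagellin (adjusted p = 0.0977) and 0.58 ± 0.73 with PBS (adjusted p = 0.694). With the replicate number as a block, an alternative fit, IVL was called over time in both flagellin-treated conditions. It was at 2.32 (adjusted p = 0.00584) with SB203580 and at 1.75 (adjusted p = 0.0266) without it. Over all genes that fit called 2422 and 2664, against 975 and 1120 in the main edgeR fit. The flagellin value was 0.62 without replicate 2 at 24 h, with all 4 replicates kept at 2 h. The call with SB203580 plus flagellin was lost without replicate 2, 3 or 4 at 2 h (2.49, 2.37 and 2.51, adjusted p of 0.113 to 0.125) and without replicate 1 or 2 at 24 h (1.60 and 2.71, adjusted p of 0.204 and 0.0567). IVL was also higher in replicates 1 and 2 than in replicates 3 and 4, by 1.91 ± 0.42 on the log2 scale at 24 h (adjusted p = 0.000723) and by 1.05 ± 0.41 at 2 h (adjusted p = 0.0385). The 2 h call was lost without any one of 7 of the 24 libraries, which are named with the other limits in the closing paragraphs (0.87 to 1.08, adjusted p of 0.0509 to 0.115).

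The plakins and sciellin moved less. EVPL, encoding envoplakin, was at 248 to 649 CPM in replicates 1 and 2 at 24 h (median 280), against 191 to 232 CPM in replicates 3 and 4 (median 220). At 2 h EVPL was at 241 to 424 CPM in replicates 1 and 2 (median 316), against 177 to 201 CPM in replicates 3 and 4 (median 191). The sets did not overlap at either time, and the log2 fold change was 0.64 ± 0.19 at 24 h (adjusted p = 0.00544) and 0.73 ± 0.18 at 2 h (adjusted p = 0.00291). SCEL encodes sciellin, an envelope precursor of stratified epithelia. It was at 350 to 732 CPM in replicates 1 and 2 at 24 h (median 449), against 256 to 390 CPM in replicates 3 and 4 (median 347). At 2 h it was at 416 to 770 CPM in replicates 1 and 2 (median 522), against 292 to 415 CPM in replicates 3 and 4 (median 336). The sets overlapped at 24 h and were separate at 2 h for SCEL, with log2 fold changes of 0.59 ± 0.19 (adjusted p = 0.0105) and 0.74 ± 0.19 (adjusted p = 0.0032).

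PPL, encoding periplakin, partner of envoplakin, varied over time without a call over all 4 replicates. In replicates 1 to 4, PPL was at 1016, 875, 810 and 698 CPM with SB203580 plus flagellin at 24 h, against 1195, 621, 565 and 585 CPM at 2 h. With flagellin it was at 743, 1731, 884 and 833 CPM at 24 h, against 735, 878, 627 and 535 CPM at 2 h. With PBS it was at 679, 733, 902 and 769 CPM at 24 h, against 657, 909, 532 and 506 CPM at 2 h. Replicates 3 and 4 were higher at 24 h in each treatment, whereas replicates 1 and 2 went either way. In replicates 3 and 4 alone, an alternative fit with 2 libraries a group, PPL was called higher at 24 h in each treatment. The log2 fold change was 0.38 with SB203580 plus flagellin (adjusted p = 0.034), 0.56 with flagellin (adjusted p = 0.00491) and 0.70 with PBS (adjusted p = 0.00205). Over all genes that fit called 3440, 3860 and 3478, against 975, 1120 and 1440 in the main edgeR fit. Over all 4 replicates the same changes were 0.20 ± 0.27, 0.59 ± 0.27 and 0.24 ± 0.27, none of them called. Between the sets PPL was higher in replicates 1 and 2 at 2 h (0.58 ± 0.18, adjusted p = 0.0112) and was not called at 24 h (0.20 ± 0.18, adjusted p = 0.326). The difference between those 2 values was itself -0.37 ± 0.25 (adjusted p = 0.273).

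KRT4, a type II keratin of non-keratinising stratified epithelia such as the oesophagus, had the highest level per kilobase of the 8. In replicates 1 to 4 it was at 5508, 4927, 2058 and 1719 CPM with SB203580 plus flagellin at 24 h, at 1636, 8895, 1598 and 1709 CPM with flagellin, and at 1670, 1986, 1994 and 1518 CPM with PBS. At 2 h it was at 9953, 3289, 1619.5 and 1928 CPM with SB203580 plus flagellin, at 5502, 6087, 1882 and 1861 CPM with flagellin, and at 4664, 8673, 1996 and 1818 CPM with PBS. Replicates 3 and 4 stayed between 1518 and 2058 CPM in all groups, and the spread lay in replicates 1 and 2, from 1636 to 9953 CPM. The sets did not overlap at 2 h, where the log2 fold change was 1.78 ± 0.34 (adjusted p = 0.000324). At 24 h both PBS libraries and replicate 1 of flagellin in replicates 1 and 2 were within the range of replicates 3 and 4. The log2 fold change there was 1.07 ± 0.35 (adjusted p = 0.0114), and it fell short of the threshold, at 0.57 (adjusted p = 0.0716), without replicate 2 of flagellin at 24 h. With PBS all 4 replicate numbers of KRT4 were lower at 24 h than at 2 h, replicate 3 only at 1994 against 1996 CPM. One direction in all 4 was seen in 38.4% of all genes there. The ratio of mean levels was 0.274 in replicates 1 and 2 and 0.921 in replicates 3 and 4. The log2 fold change was -1.26 ± 0.68 and was not called (adjusted p = 0.268).

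DSG1, the desmosomal cadherin of the upper epidermal layers, was lower at 24 h than at 2 h in most pairs of libraries. In replicates 1 to 4 it was at 39.1, 43.1, 96.0 and 64.1 CPM with PBS at 24 h, against 310, 393, 159 and 129 CPM with PBS at 2 h. The PBS libraries of the 2 times did not overlap for DSG1, alone among the 8, as for 17.2% of all genes. With flagellin DSG1 was at 25.0, 103, 94.3 and 153 CPM at 24 h, against 246, 363, 101 and 64.1 CPM at 2 h. With SB203580 plus flagellin it was at 235, 93.5, 71.4 and 40.2 CPM at 24 h, against 571, 150, 118 and 157 CPM at 2 h. Those groups overlapped, and replicate 4 with flagellin was higher at 24 h. The log2 fold change of 24 h over 2 h was -1.18 ± 0.65 with SB203580 plus flagellin (adjusted p = 0.324), -1.04 ± 0.65 with flagellin (adjusted p = 0.387) and -2.03 ± 0.67 with PBS (adjusted p = 0.0573). The value with PBS was just outside the threshold of 0.05 and was called in several alternatives. Among them were DESeq2 (-2.04, adjusted p = 0.0106) and a fit with terms for the set of replicates by time (-1.92, adjusted p = 0.0129). With the replicate block it was not called (-1.78, adjusted p = 0.055). Over all genes these 3 fits called 2004, 4700 and 3183, against 1440 in the main edgeR fit. DSG1 was higher in replicates 1 and 2 at 2 h, at 150 to 571 CPM (median 336) against 64.1 to 159 CPM in replicates 3 and 4 (median 123), with a log2 fold change of 1.52 ± 0.44 (adjusted p = 0.00823). At 24 h it was at 25.0 to 235 CPM in replicates 1 and 2 (median 68.3) and 40.2 to 153 CPM in replicates 3 and 4 (median 82.8), a log2 fold change of -0.16 ± 0.47 (adjusted p = 0.78). The change of the set difference from 2 h to 24 h was -1.68 ± 0.64 (adjusted p = 0.0506).

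**Figure D2:**
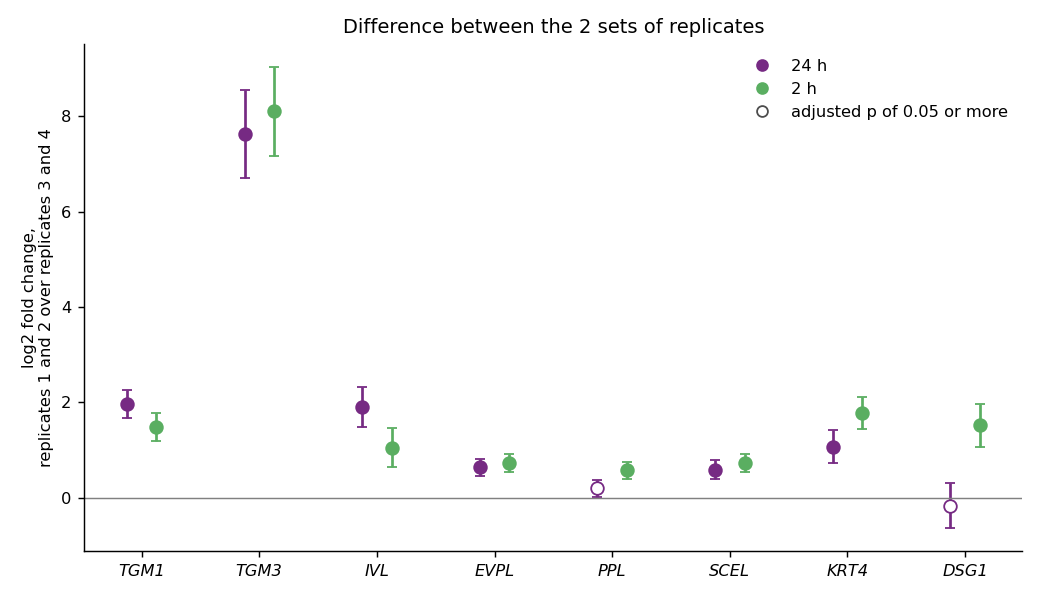
Log2 fold change of replicates 1 and 2 over replicates 3 and 4 for each gene, at 24 h and at 2 h, from edgeR. Bars are standard errors of the fit over 6 libraries a set, and open circles had an adjusted p of 0.05 or more. All values are above 0 except DSG1 at 24 h (-0.16), and TGM3 stands at 7.62 and 8.10.

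Counted over the 8 genes, 6 were higher in replicates 1 and 2 at 24 h and 8 at 2 h, and none was lower. That has to be read against 32.9% of all genes called higher and 31.6% called lower at 24 h, and 25.8% higher and 26.2% lower at 2 h. The share of mitochondrial counts separated the same sets, and its part in these counts was not tested. Levels did not overlap between the sets for 3 of the 8 genes at 24 h (17.1% of all genes) and for 5 at 2 h (13.1%). Over all 24 libraries TGM1, TGM3 and EVPL were entirely higher in replicates 1 and 2, against 4.02% of all genes. The median log2 fold change of the 8 was 0.86 at 24 h and 1.27 at 2 h, beside 0.02 and 0.01 over all genes. No gene of the 8 had a called difference between the set effects at the 2 times, where 35.0% of all genes did. At an unadjusted p under 0.05 there was 1 (DSG1), where 44.2% of all genes had one, and DESeq2 also called 1.

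Other genes of the envelope and of the programme around it were counted in the same comparison. Of 27 further tested genes for envelope precursors, cross-linkers and their partners, 19 were higher in replicates 1 and 2 at 24 h and 0 lower, and 21 were higher and 1 lower at 2 h. These and the counts below stand beside the same shares of all genes called higher and lower. LY6D, a surface protein of stratified epithelium, averaged 181 ± 94.8 CPM in replicates 1 and 2 and 5.64 ± 1.51 CPM in replicates 3 and 4 at 24 h (SD, n = 6 each). The log2 fold change of LY6D was 4.91 ± 0.45. CRNN, encoding cornulin, averaged 670 ± 562 CPM in replicates 1 and 2 and 45.6 ± 18.1 CPM in replicates 3 and 4 at 24 h (log2 fold change 3.73 ± 0.55). CNFN, encoding the envelope component cornifelin, was at 322 ± 174 CPM against 24.9 ± 9.21 CPM at 2 h (log2 fold change 3.68 ± 0.61). The protease inhibitor A2ML1 was higher at both times, by 3.34 ± 0.49 and 3.55 ± 0.49 on the log2 scale.

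Among 8 further tested keratins of stratified epithelia, 4 were higher in replicates 1 and 2 at 24 h and 6 at 2 h, and none was lower. KRT1, a suprabasal keratin of the epidermis, was at 36.4 ± 27.7 CPM in replicates 1 and 2 at 2 h, against 1.65 ± 1.66 CPM in replicates 3 and 4 (log2 fold change 4.54 ± 1.00). KRT10, the epidermal partner of KRT1, was at 10.8 ± 4.19 CPM against 3.77 ± 0.258 CPM at 24 h (1.48 ± 0.22). KRT77 was higher at both times (4.64 ± 0.87 and 3.90 ± 0.78). KRT78 was at 535 ± 291 against 101 ± 26.3 CPM at 2 h. The 3 tested keratins of simple epithelia had 1 called gene, KRT18, higher by 0.52 ± 0.13 at 24 h. Of 11 other desmosome genes, 3 were higher and 0 lower at 24 h, and 6 were higher and 3 lower at 2 h. DSG3, the cadherin of deeper squamous layers, was at 738 ± 225 CPM in replicates 1 and 2 and 357 ± 37.8 CPM in replicates 3 and 4 at 24 h (1.04 ± 0.18) and was higher at 2 h too (1.29 ± 0.18). DSG2, the cadherin of simple epithelia, was lower at 2 h, at 160 ± 21.3 against 275 ± 25.9 CPM (-0.78 ± 0.10).

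Regulators and enzymes of squamous epithelium were mixed or mostly higher in replicates 1 and 2. Of 22 transcription factors of squamous differentiation, 10 were higher and 5 lower at 24 h, and 10 were higher and 3 lower at 2 h. KLF4, a factor needed for the skin barrier in mice, was at 430 ± 311 CPM in replicates 1 and 2 and 140 ± 23.9 CPM in replicates 3 and 4 at 24 h (1.53 ± 0.31). ZNF750, a regulator of terminal epidermal differentiation, was at 72.3 ± 15.0 against 21.6 ± 4.63 CPM at 2 h (1.76 ± 0.22). MAF ran the other way at both times, by -2.51 ± 0.19 and -2.04 ± 0.18. Of 17 genes of the epidermal lipid barrier, 10 were higher and 2 lower at 24 h, and 10 were higher and 3 lower at 2 h. Both lipoxygenase genes of that pathway were among those named, ALOX12B higher at 2 h (3.27 ± 0.65) and ALOXE3 lower at 24 h (-0.79 ± 0.12). Of 18 kallikreins and other proteases of desquamation, 12 were higher and 2 lower at 24 h and 10 were higher and 1 lower at 2 h, led by the kallikrein KLK12 (3.49 ± 0.59 and 4.76 ± 0.66). Of 18 genes of retinoid handling, 6 were higher and 1 lower at 24 h and 9 were higher and 2 lower at 2 h. CRABP2, a cellular retinoic acid binding protein, was at 15.2 ± 8.56 CPM in replicates 1 and 2 and 2.38 ± 1.14 CPM in replicates 3 and 4 at 24 h (2.66 ± 0.37).

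Markers of other airway cells were counted between the sets as well. The shares of all genes called were 32.9% higher and 31.6% lower at 24 h, and 25.8% higher and 26.2% lower at 2 h. Of 13 club and secretory cell markers, 11 were higher in replicates 1 and 2 at 24 h and 10 at 2 h, and none was lower. Of 11 goblet cell markers, 8 were higher and 1 lower at 24 h, and 11 were higher at 2 h. For 17 ciliated cell markers the counts were 4 higher and 1 lower at 24 h and 5 higher at 2 h. Basal cell markers ran both ways, with 2 higher and 5 lower of 10 at 24 h and 2 higher and 4 lower at 2 h. TP63, the basal cell transcription factor, was at 41.3 ± 11.3 CPM in replicates 1 and 2 and 86.5 ± 3.22 CPM in replicates 3 and 4 at 24 h (-1.09 ± 0.12). Summed over 14 secretory genes of that list found in the table, levels were 2141 to 4248 CPM in replicates 1 and 2 and 846 to 1519 CPM in replicates 3 and 4, where 2 of the 12 libraries held no SCGB1A1 count. The sums were 486 to 4176 against 357 to 1074 CPM over 12 goblet genes, 221 to 415 against 183 to 298 CPM over 18 ciliated genes and 6084 to 8682 against 10554 to 13495 CPM over 10 basal genes. Secretory and basal sums were thus separate between the sets, in opposite directions. The basal sum rested mostly on COL17A1, with 5192587 counts over all libraries, followed by LAMB3 with 786844. As a mean of log2(CPM + 1), both lists overlapped between the sets. Basal means were 6.23 to 7.17 in replicates 1 and 2 against 6.55 to 7.07 in replicates 3 and 4. Secretory means were 4.82 to 6.54 against 3.70 to 5.13. The part of these cell markers in the set difference of the 8 genes was not tested.

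By mean log2(CPM + 1) within replicates 1 and 2, the libraries richest in the 8 genes were mostly poor in secretory and ciliated markers. A total of 5 libraries, written here as the 5 low-secretory libraries, had the lowest mean log2(CPM + 1) over 14 secretory genes: at 24 h both of SB203580 plus flagellin and replicate 2 of flagellin, and at 2 h replicate 1 of SB203580 plus flagellin and replicate 2 of PBS. That mean was 4.82 to 5.61 in these 5 libraries, against 6.08 to 6.54 in the other 7. Over 18 ciliated genes it was 1.43 to 1.81 in the 5 libraries, against 2.16 to 2.69 in the other 7. Over the 8 squamous genes it was 8.13 to 9.29 in the 5 libraries, against 7.26 to 8.31 in the other 7. Secretory means were separate because they chose the libraries, ciliated means were separate too, and squamous means overlapped from 8.13 to 8.31. Summed CPM overlapped for each of these lists. Secretory sums were 2141 to 3129 CPM in the 5 libraries, against 3034 to 4248 CPM in the other 7. Ciliated sums were 221 to 330 against 241 to 415 CPM, and squamous sums 7381 to 13327 against 3225 to 8425 CPM. In replicates 3 and 4 the means were 3.70 to 5.13 for secretory, 1.45 to 2.33 for ciliated and 6.41 to 7.08 for squamous genes, so squamous means were all under those of replicates 1 and 2, secretory means reached into the range of the 5 low-secretory libraries, and ciliated means into the ranges of both. The libraries were picked for their secretory levels after the values were seen, and no cause of the pattern was tested.

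**Figure D3:**
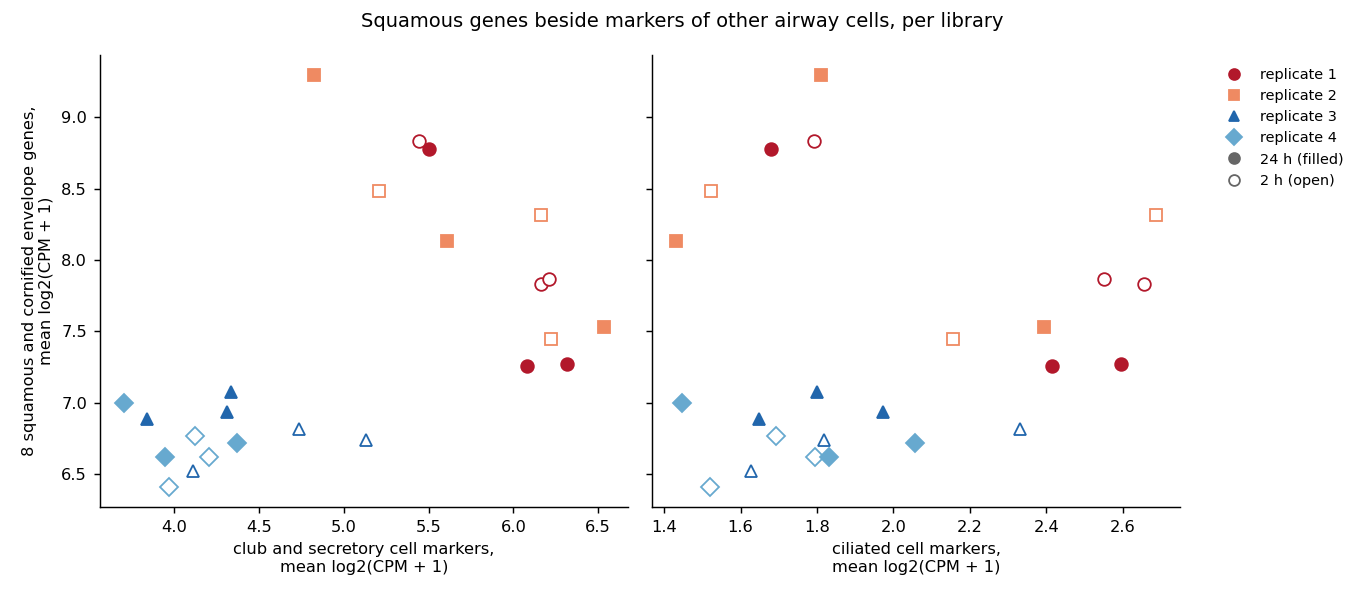
Mean log2(CPM + 1) of the 8 squamous and cornified envelope genes (vertical axis) against that of 14 club and secretory cell markers (left) and 18 ciliated cell markers (right). Each point is 1 of the 24 libraries, filled at 24 h and open at 2 h, with shape and colour for the replicate number. Replicates 3 and 4 lie lowest on the vertical axis, with ciliated means of 1.45 to 2.33 that overlap those of replicates 1 and 2, and within replicates 1 and 2 the points with secretory means of 5.61 or less have squamous means of 8.13 or more.

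Leaving out these libraries changed calls between the sets. All 5 were of replicates 1 and 2 and were mostly rich in the 8 genes. A smaller or reversed set difference therefore follows partly from that choice. The omission left 3 of 6 libraries of replicates 1 and 2 at 24 h, none of them with SB203580, and 4 of 6 at 2 h. Without the 5 low-secretory libraries, an alternative added after the data were seen, the set comparison at 24 h called 3 genes higher and 2 lower, in place of 6 and 0. TGM1, TGM3 and IVL remained called. EVPL (0.21, adjusted p = 0.0567), SCEL (0.11, adjusted p = 0.507) and KRT4 (0.02, adjusted p = 0.884) did not pass. DSG1 was then lower in replicates 1 and 2 (-1.47, adjusted p = 0.0135), and so was PPL (-0.23, adjusted p = 0.0384). At 2 h 7 of the 8 genes were called, with IVL the exception (0.66, adjusted p = 0.0515). The rise of IVL over time with SB203580 plus flagellin remained called at 1.71 (adjusted p = 0.0474), with replicates 3 and 4 left at 24 h and replicates 2, 3 and 4 at 2 h. The change of the set difference with time was then called for 3 genes, DSG1 (-2.66, adjusted p = 0.00359), KRT4 (-1.30, adjusted p = 4.25e-05) and PPL (-0.57, adjusted p = 0.00157). The number of all genes called in this setting alone is not given here. Over the alternatives other than leaving out 1 library it was 8413 to 9292 between sets at 24 h and 7279 to 7759 at 2 h. For the change of the set difference with time it was 4616 to 5323, and for SB203580 plus flagellin over time 118 to 3838. These ranges do not split genes called higher from genes called lower.

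Time was tested within each treatment. In PBS cultures 0 of the 8 genes were called between 24 h and 2 h, where 10.2% of all genes were. There 1 gene, DSG1, had an unadjusted p under 0.05, as did 24.4% of all genes, and DESeq2 called that 1. In flagellin cultures 0 were called, where 7.9% of all genes were, with 2 of the 8 (IVL and PPL) and 21.6% of all genes at an unadjusted p under 0.05 and 1 (IVL) called by DESeq2. With the replicate number as a block the flagellin count was 2: IVL, and TGM1 at 1.14 (adjusted p = 0.0345), against 1.45 ± 0.73 (adjusted p = 0.26) without the block. Over all genes the block called 2664 with flagellin and DESeq2 called 1624, against 1120 in the main edgeR fit. With PBS DESeq2 called 2004, against 1440. In SB203580 plus flagellin 6.88% of all genes were called and 1 of the 8, IVL, also the 1 at an unadjusted p under 0.05 (20.3% of all genes). The 8 genes had no common direction over time: TGM1, IVL and PPL had positive values and KRT4 and DSG1 negative ones in all 3 treatments, and EVPL, SCEL and TGM3 had both signs. The median over the 8 was 0.05 with SB203580 plus flagellin, 0.50 with flagellin and -0.23 with PBS, beside 0.01, 0.01 and -0.01 over all genes.

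Over time, 0 of 27 further envelope genes, 0 of 8 further keratins of stratified epithelia, 0 of 3 simple keratins and 0 of 17 lipid barrier genes were called in any treatment. The shares of all genes called are those just given for each treatment. Of 22 regulators, 0 were called with SB203580 plus flagellin, 1 was higher and 1 lower with flagellin, and 1 was higher and 2 lower with PBS. BARX2, a homeobox regulator, was at 26.2 ± 6.88 CPM at 24 h and 10.6 ± 3.65 CPM at 2 h with flagellin and at 29.0 ± 6.01 against 10.6 ± 2.93 CPM with PBS (SD, n = 4 each). It rose by 1.31 ± 0.40 and 1.45 ± 0.40 on the log2 scale. HES1, a Notch target, fell by 0.69 ± 0.18 with flagellin and by 1.00 ± 0.18 with PBS, and FOSL2, an AP-1 subunit, fell by 0.77 ± 0.15 with PBS. Of 18 proteases, 1 was called with flagellin and the same 1 with PBS, and 0 with SB203580 plus flagellin. This serine protease, PRSS8, which acts in the skin barrier of mice, rose by 0.65 ± 0.15 with flagellin and by 0.68 ± 0.15 with PBS. Of 18 retinoid genes, 3 were higher with SB203580 plus flagellin, 1 with flagellin and 2 with PBS, and none was lower. RXRB, a retinoid X receptor, was among them in each treatment, at 0.24, 0.25 and 0.32 (SE 0.07 each). RARB, a retinoic acid receptor, rose by 0.66 ± 0.15 with SB203580 plus flagellin. DHRS3, a retinaldehyde reductase, was called higher at 24 h with SB203580 plus flagellin and with PBS, by 1.51 ± 0.36 in PBS. Of 11 other desmosome and adhesion genes, 1 was called, in 1 treatment: CDH1, encoding E-cadherin, was lower at 24 h with SB203580 plus flagellin, at 1302 ± 122 against 1785 ± 318 CPM (-0.46 ± 0.14).

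Flagellin was then set against PBS, and SB203580 plus flagellin against both. At 2 h none of the 8 genes was called in these 3 comparisons. Beside that, 0.00706% of all genes were called for SB203580 plus flagellin against flagellin, 0.183% for SB203580 plus flagellin against PBS, and 0.325% for flagellin against PBS. The log2 fold changes of the 8 lay between 0.02 and 0.49, -0.29 and 0.52, and -0.36 and 0.09 in these comparisons, and 0 of the 8 had an unadjusted p under 0.05 in any of them, where 2.27%, 4.75% and 5.09% of all genes did. At 24 h 0 of the 8 were called as well, where the shares of all genes were 0.0% for SB203580 plus flagellin against flagellin, 0.00706% for SB203580 plus flagellin against PBS and 0.0% for flagellin against PBS. DESeq2 and each other alternative also called 0 of the 8 in the 6 treatment comparisons. At 24 h IVL alone had an unadjusted p under 0.05, against PBS with SB203580 plus flagellin, where 2.86%, 4.25% and 0.79% of all genes did in the same 3 comparisons. The comparisons share their PBS and flagellin libraries.

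At 24 h flagellin over PBS gave positive log2 fold changes for all 8 genes, with a median of 0.79 and a range of 0.27 to 2.92, beside 0.02 over all genes. TGM1 (1.02 ± 0.73) was higher with flagellin in 4 of 4 replicate numbers, and PPL and TGM3 (2.92 ± 2.29) in 3. For TGM3 these include replicate 3, near the floor at 0.120 against 0.0309 CPM. The other 5 genes, IVL (1.21 ± 0.74) and KRT4 (0.95 ± 0.68) among them, were higher in 2. The share of all genes moving one way in all 4 is not given here for this comparison. Without replicate 2 in both groups, an alternative added after the data were seen, TGM3 was at 0.70, DSG1 at 0.46, TGM1 at 0.16, PPL at 0.07, EVPL at 0.01, SCEL at -0.01, KRT4 at -0.06 and IVL at -0.08. The flagellin library left out there is one of the 5 low-secretory ones. In replicates 3 and 4 alone 5 of the 7 genes that could be fitted were positive, from 0.01 for SCEL to 0.63 for DSG1, and IVL (-0.0035) and KRT4 (-0.09) were negative. SB203580 plus flagellin over PBS at 24 h also gave 8 positive values, from 0.14 to 1.72 with a median of 0.77, again beside 0.02 over all genes. IVL had the highest of them, 1.72 ± 0.75 at an unadjusted p of 0.0319 (adjusted p = 1), and was higher in all 4 replicate numbers, while 17.7% of all genes moved one way in all 4. In means, IVL was at 557 CPM with SB203580 plus flagellin and 139 CPM with PBS in replicates 1 and 2. In replicates 3 and 4 the IVL means were 128 and 68.8 CPM. The ratio of such means ran from 1.28 (EVPL) to 4.02 (IVL) in replicates 1 and 2. In replicates 3 and 4 it was 1.87 for IVL and 1.08 for KRT4, with TGM3 near the floor. The other genes were under 1 there: TGM1 (0.936), EVPL (0.971), PPL (0.902), SCEL (0.901) and DSG1 (0.697). Both SB203580 plus flagellin libraries of replicates 1 and 2 at 24 h were low-secretory ones, and without the 5 low-secretory libraries the count of called genes stayed at 0. The value for IVL was then 0.31, but it sets replicates 3 and 4 with SB203580 plus flagellin against replicates 1 to 4 with PBS, and in replicates 3 and 4 alone it was 0.89. SB203580 plus flagellin over flagellin had values on both sides of 0 at 24 h, from -1.54 for TGM3 to 0.52 for IVL. No gene of the related lists was called in any treatment comparison. The effect of flagellin, or of SB203580 in the presence of flagellin, was not called as different between the 2 times for any of the 8 genes, where 0.0423% and 0.0% of all genes were, and 0 of the 8 had an unadjusted p under 0.05, where 1.66% and 0.797% of all genes did.

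**Figure D4:**
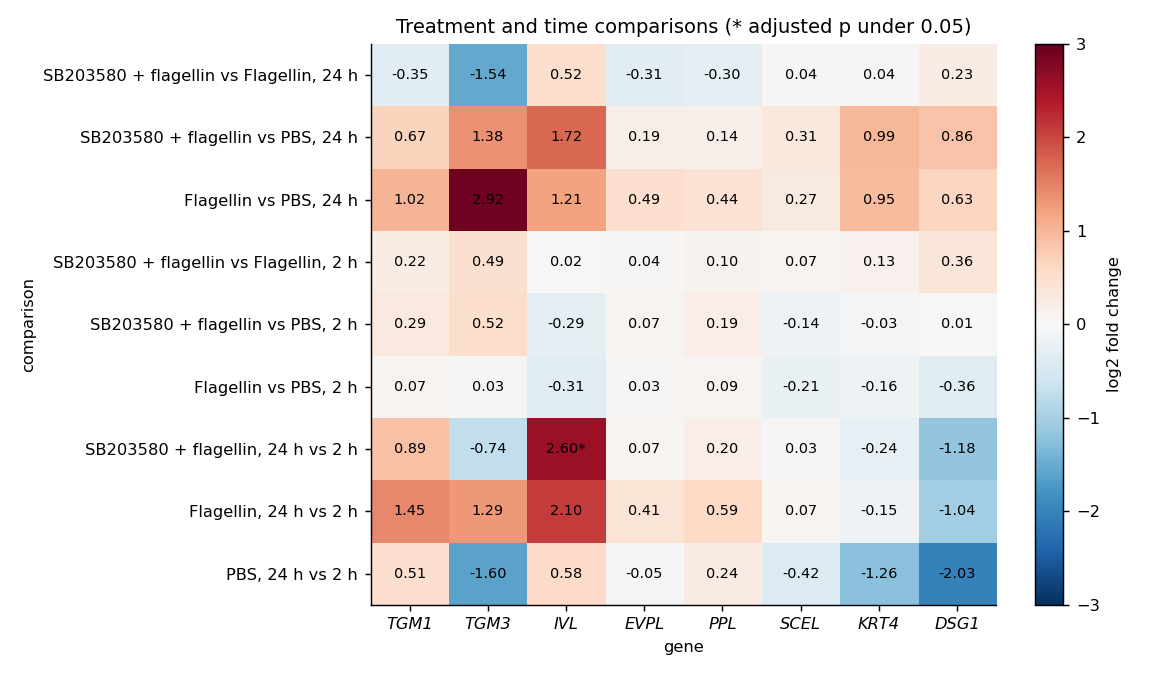
Log2 fold change of each gene (columns) in the 6 treatment and 3 time comparisons (rows), first-named group over second, from edgeR with 4 libraries a group. Colour runs from blue (lower) to red (higher), and an asterisk marks an adjusted p under 0.05. The 1 asterisk is IVL at 2.60 in SB203580 plus flagellin, 24 h over 2 h.

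Genes whose pattern was most like that of the 8 were found after standardising log2 CPM within each set of replicates, so that the difference between the sets played no part. The 8 profiles were averaged, and 11137 genes were ordered by the root mean square difference from that mean over the 24 libraries, in standard deviations. The median gene stood at 1.35. The most alike outside the 8 were ANKRD35 (0.465), TPRG1 (0.468), MUC21 (0.480, named by position), TMPRSS11E (0.491), KLK10 (0.494), IL1RL2 (0.497), SPINK5 (0.525) and KRT78 (0.533). SPINK5 encodes an inhibitor of skin kallikreins, KLK10 a kallikrein and TMPRSS11E a transmembrane serine protease. Of the 8 genes themselves, EVPL was nearest to their mean at 0.400 and DSG1 farthest at 1.06. Each of the 8 is part of that mean, which lowers its own distance, so these values cannot be set beside those of other genes. SPINK5 was at 128 to 1027 CPM in replicates 1 and 2 (median 369), against 23.0 to 77.6 CPM in replicates 3 and 4 (median 44.6). ANKRD35 was at 60.5 to 287 CPM in replicates 1 and 2 (median 134), against 23.1 to 50.6 CPM in replicates 3 and 4 (median 34.5).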

How the data were processed

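RNA of 24 cultures was sequenced with paired ends, per the labels. The authors deposited 1 table of raw read counts for each gene, with gene lengths. The submitters' processing notes name featureCounts, Subread 1.4.6-p1 and STAR 2.4.0a, with no role given, and GRCm38, which is a mouse build, while the deposited features are pig genes.

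Symbols came from Ensembl identifiers (14857 genes) or, for 1606 more, from overlap of their position with the RefSeq annotation of Sscrofa11.1, which gave the same name for 94.7% of 12522 genes that could be compared. Features other than pig genes (0.00014% to 0.00514% of a library's counts) were left out. Counts were fitted with edgeR 4.0.16 (R 4.3.3) with TMM factors (0.836 to 1.07), a filter on low counts (filterByExpr) and robust quasi-likelihood F tests. The 6 groups shared 1 fit without a block, and set comparisons used a fit of group plus set at each time. Genes with an adjusted p under 0.05 were called. Alternatives were RLE scaling, no filter, DESeq2 1.42.0, a replicate block, terms for the set by time, only the groups compared, each set alone and leaving out each library. The scripts were tested on simulated data.

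Libraries with the same replicate number deviated together (correlations of 0.211 to 0.797, every pair over 0.1 in 9 of 9 comparisons). These deviations include the difference between the sets, and libraries of different numbers were not compared. The correlations therefore cannot show that single numbers pair the libraries, and the replicate block was kept as an alternative. No 2 replicates agreed within sampling noise (chi-square per gene of 10.8 to 412 over 36 pairs). The members and lists were chosen with earlier results of these data known. Genes of a list were named as the up to 3 called genes with the largest change that moved the same way in all 4 replicate numbers or, between sets, did not overlap; not all of them are printed.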

Additional observations from a re-analysis of the deposited data

Results flagged for a closer look

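In groups of 4 libraries, 10 of 48 gene and group combinations had 1 library far from the other 3, by Dixon's test at the 95% level. About 1 in 20 such groups is expected by chance, and the 8 genes share libraries, so these are not independent. Replicate 2 of flagellin at 24 h was the high library for 7 genes, at 404 CPM for TGM1, 110 CPM for TGM3, 704 CPM for IVL, 649 CPM for EVPL, 1731 CPM for PPL, 732 CPM for SCEL and 8895 CPM for KRT4. Replicate 1 of SB203580 plus flagellin at 2 h was the high library for 3 genes, at 59.8 CPM for TGM3, 1195 CPM for PPL and 571 CPM for DSG1. Both libraries are among the 5 with the lowest secretory means in replicates 1 and 2.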

How the results depend on the processing

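Of the counts of called genes among the 8, 96 of 111 settings other than leaving out 1 library kept the count within 1.5 times, including all settings of the 6 treatment comparisons and of both set comparisons, although without the 5 low-secretory libraries the 24 h sets had 3 higher and 2 lower in place of 6 and 0. With PBS over time the count was 1 in place of 0 with DESeq2, the set term, replicates 1 and 2 alone, replicates 3 and 4 alone (there PPL, otherwise DSG1) and the compared groups alone. With flagellin over time it was 1 with DESeq2, 2 with the replicate block, 3 with the set term and 1 in replicates 3 and 4. With SB203580 plus flagellin over time it was 0 without the filter, in replicates 1 and 2 and in the compared groups alone, and 3 in replicates 3 and 4. For the change of the set difference with time it was 1 with DESeq2 and 3 without the 5 low-secretory libraries. Leaving out 1 library gave 0 to 1 with PBS and with SB203580 plus flagellin over time, 0 to 2 for that change, 7 to 8 at 2 h and 5 to 6 at 24 h between sets. The IVL call between sets at 2 h was lost without replicate 1, 2 or 4 of flagellin, replicate 2 or 4 of PBS, or replicate 1 or 3 of SB203580 plus flagellin at 2 h, and without the filter (1.03, adjusted p = 0.0695). Signs were followed for some fold changes only. With SB203580 plus flagellin over PBS at 24 h only IVL was followed, and ratios of other genes are given above. DSG1 with SB203580 plus flagellin over flagellin at 24 h was not followed either. Its ratio of mean levels was 2.57 in replicates 1 and 2 and 0.450 in replicates 3 and 4. Among the changes followed, signs turned for DSG1 with flagellin over time in replicates 3 and 4 (0.58). They turned for PPL with PBS over time in replicates 1 and 2 (-0.13) and between sets at 24 h without the 5 libraries (-0.23). For flagellin over PBS at 24 h they turned for IVL (-0.0035 in replicates 3 and 4, -0.29 without the 5 libraries), KRT4 (-0.088 and -0.11), TGM1 (-0.15) and TGM3 (-0.46). Without replicate 2 in both groups, IVL was at -0.080 and KRT4 at -0.062 there, while TGM1 and TGM3 kept their sign. With 1 library left out, which leaves different replicate numbers in the 2 groups, values spanned -0.52 to 0.15 for DSG1 and -0.018 to 0.30 for PPL between sets at 24 h, -0.48 to 2.00 for IVL with SB203580 plus flagellin over flagellin at 24 h, and for flagellin over PBS at 24 h -0.29 to 1.52 for IVL, -0.12 to 1.18 for KRT4, -0.15 to 1.34 for TGM1 and -0.46 to 4.07 for TGM3. Causes were not tested. Over all genes, counts moved from 46 to between 20 and 318 (flagellin over PBS, 2 h), from 26 to between 6 and 281 and from 1 to between 0 and 93 (SB203580 plus flagellin over PBS and over flagellin, 2 h), from 1 to between 0 and 65 and from 0 to at most 13 (the same at 24 h), from 0 to at most 1 (flagellin over PBS, 24 h), from 975, 1120 and 1440 to between 118 and 3838, 300 and 4095, and 532 and 4700 (time with SB203580 plus flagellin, flagellin and PBS), and from 6 to between 4 and 74 (flagellin by time).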

Other observations

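Other gene groups were counted between the sets of replicates as well. Beside these counts, 32.9% of all genes were called higher and 31.6% lower at 24 h. At 2 h the shares were 25.8% and 26.2%. Of 15 proliferation genes, 14 were higher and 1 lower in replicates 1 and 2 at 24 h, and 12 were higher and 0 lower at 2 h. CCNB1, a mitotic cyclin, was higher by 2.19 on the log2 scale at 24 h and by 1.61 at 2 h. Of 10 fibroblast and smooth muscle markers, 2 were higher and 4 lower at 24 h and 2 higher and 3 lower at 2 h. COL1A1, the collagen gene of fibroblasts, was at 0.790 to 3.81 CPM in replicates 1 and 2, against 2.28 to 13.8 CPM in replicates 3 and 4. Of 9 housekeeping genes, 6 were higher at 24 h and 1 at 2 h, with 0 and 2 lower.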
